A study of Mus musculus with 12 samples.

Results

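The SLC25 family of mitochondrial carriers was followed through 12 Affymetrix arrays of adipocytes made from 3T3-L1, a mouse fibroblast-like line that turns into fat cells when induced. Members were all genes whose annotated symbol is Slc25a followed by a number. The arrays measured 43 of them, with 1 probe set each, among 15267 genes tested.

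SLC25 proteins sit in the inner mitochondrial membrane, with a few exceptions, and exchange or carry solutes that the membrane would otherwise keep apart. In a fat cell they bring ADP and phosphate to ATP synthase, fatty acids and amino acids to their oxidation, and iron and cofactors to the enzymes that use them. They also take citrate out to the cytosol, where it supplies acetyl groups for fatty acid synthesis.

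The 4 groups had 3 arrays each. The first had an adenovirus with shRNA against TBLR1 and was given 10 µM isoproterenol for 3 h. The second had the same shRNA without isoproterenol. The third had an adenovirus with control shRNA and isoproterenol, and the fourth had control shRNA without isoproterenol. Cells of all 4 groups were transduced on day 9 after induction at a multiplicity of infection of 500, and 3 days later spent 2 h in Krebs-Ringer buffer. All groups thus carry virus and a short hairpin, and there is no group without them. TBLR1 is encoded by Tbl1xr1 and belongs to the corepressor complexes NCoR and SMRT. Isoproterenol activates β-adrenergic receptors, which raises cAMP in fat cells and sets lipolysis going. The labels do not say whether the 3 arrays of a group are separate cultures. The p-values therefore cover no more than the spread among these arrays, and that spread may be technical.

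The target responded as labelled. Tbl1xr1 had log2 levels of 6.45, 6.47 and 6.43 with TBLR1 shRNA, against 7.20, 7.27 and 7.26 with control shRNA, in untreated cells, which is 57.7% of the control level (adjusted p = 8.36e-10). With isoproterenol its level was 54.9% of that of control cells (adjusted p = 2.3e-10). Of 8 measured adipocyte markers, 0 were dim, that is with a mean log2 level under 6.48, while 5 of 7 macrophage markers and 5 of 7 brown or beige markers were. In untreated cells 7 of the 8 adipocyte markers fell with TBLR1 shRNA, against 20.0% of all genes. In treated cells the same number were lower with TBLR1 than with control shRNA, against 22.3%. The log2 of their summed signal was 16.21 to 16.23 with TBLR1 shRNA, against 16.47 to 16.52 with control shRNA, in untreated cells, and 16.16 to 16.19, against 16.46 to 16.50, with isoproterenol. For 7 preadipocyte markers it was 13.89 to 13.93, against 14.42 to 14.48, in untreated cells, with 2 higher and 4 lower. For 7 macrophage markers it was 10.02 to 10.14, against 9.75 to 9.89, with 2 higher and 1 lower. With isoproterenol that sum was 10.61 to 10.71, against 10.07 to 10.30. For 4 myocyte markers it was 8.83 to 8.89, against 8.57 to 8.60, with 1 higher and 0 lower. For 7 brown or beige markers it was 9.91 to 10.18, against 9.75 to 10.37, with 0 called. All 6 measured interferon response genes rose, and the log2 of their summed signal was 14.34 to 14.62 with TBLR1 shRNA, against 11.47 to 12.22 with control shRNA. The part of these differences in the SLC25 results was not tested. In such bulk RNA, fewer cells of a type and less RNA per cell cannot be told apart.

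TBLR1 shRNA changed 24 of the 43 members (55.8%) in untreated cells, against 37.7% of all genes. Of these members 10 rose, against 17.7% of all genes, and 14 fell, against 20.0% of all genes. With isoproterenol in both groups 24 members changed too, against 41.7% of all genes, with 9 higher, against 19.5%, and 15 lower, against 22.3%. A change here is an adjusted p under 0.05 in the limma fit of all genes. In the shRNA results, a rise or fall with isoproterenol is the difference of TBLR1 from control shRNA in treated cells. Of the 43 members, 29 had a signal above the median of all genes. Among members that were not dim, 23 of 35 (65.7%) were called in untreated cells, against 53.3% of such genes, and 24 of 35 (68.6%) with isoproterenol, against 58.2%. No test of these differences in share was made. The shares of all genes called higher and lower are also to be read beside the counts of carrier groups and gene lists below. Those counts were not tested against the shares. The median log2 difference over the members was −0.05 in each of the shRNA comparisons, against −0.01 over all genes.

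The shRNA comparisons share no arrays, but they share the shRNAs and the estimate of spread in the fit. How often calls were shared over all genes is not given here. All 9 members that were higher with TBLR1 shRNA in treated cells were among the 10 that were higher in untreated cells. The exception was Slc25a26, a carrier of S-adenosylmethionine. Of the members that fell, 9 were shared, which is 64.3% of the 14 in untreated cells and 60.0% of the 15 in treated cells. No member was called in opposite directions. Changes of at least 1.5-fold were called for 4 members in untreated cells, against 4.02% of all genes, and for 7 with isoproterenol, against 5.39%. For 28 members in each comparison no array of one group reached into the range of the other, against 46.9% of all genes in untreated and 49.1% in treated cells. The hybridisation controls, transcripts added to the labelled sample, averaged 10.94 to 11.03 on the arrays with TBLR1 shRNA, against 11.01 to 11.15 on those with control shRNA. When arrays were centred on these controls, 12 members were higher and 8 lower in untreated cells, and 16 higher and 11 lower with isoproterenol. Of the called members 60.0% were then higher in untreated cells, against 68.5% of 5052 called genes, and 59.3% with isoproterenol, against 77.6% of 7249 called genes. That centring moved the median of all genes to 0.07 and 0.12. With isoproterenol it ended the calls of Slc25a14, Slc25a15, Slc25a20 and Slc25a33. After cyclic loess the split in untreated cells was 11 higher and 10 lower, that is 52.4% higher, against 53.4% of all called genes.

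**Figure D1:**
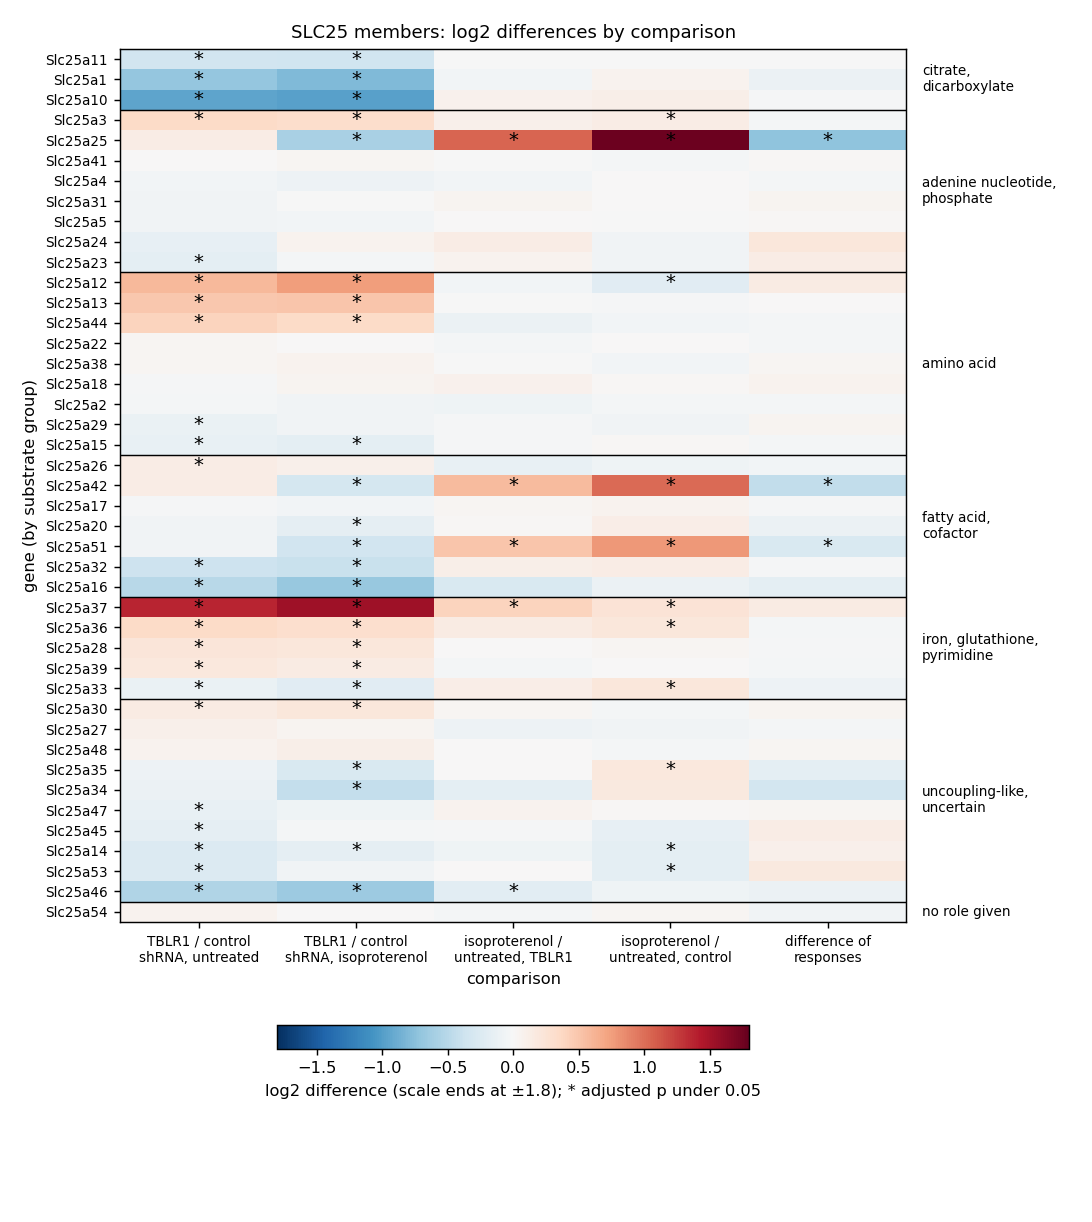
Log2 differences of the 43 SLC25 members (rows, grouped by substrate) in the 5 comparisons (columns), with red for higher and blue for lower; an asterisk marks an adjusted p under 0.05. The citrate and dicarboxylate carriers are blue in both shRNA columns, and Slc25a25, Slc25a42 and Slc25a51 stand out in the isoproterenol columns.

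**Figure D2:**
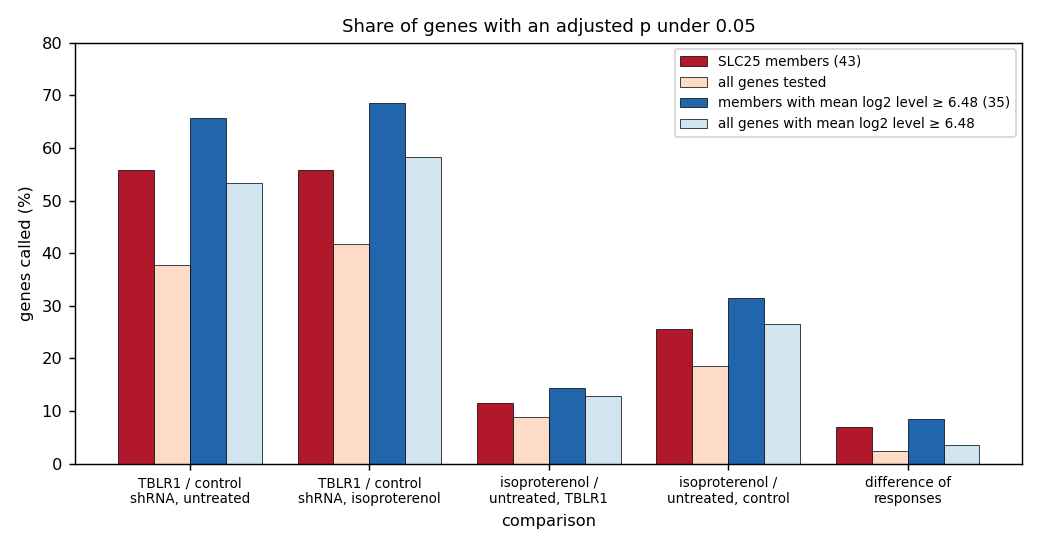
Percentage of genes called in each comparison for the 43 members, for all genes tested, for the 35 members with a mean log2 level of at least 6.48 and for all such genes. In untreated cells the bars are at 55.8%, 37.7%, 65.7% and 53.3% for TBLR1 against control shRNA.

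The citrate and dicarboxylate carriers fell together. All 3 measured members of this group, Slc25a1, Slc25a10 and Slc25a11, were lower with TBLR1 shRNA in both comparisons, against 20.0% and 22.3% of all genes. Their median log2 difference was −0.69 in untreated cells and −0.80 with isoproterenol. Slc25a10 is the dicarboxylate carrier, which exchanges malate and succinate for phosphate. It had log2 levels of 9.59, 9.70 and 9.48 with TBLR1 shRNA, against 10.54, 10.55 and 10.54 with control shRNA, in untreated cells. With isoproterenol the levels were 9.65, 9.62 and 9.74 with TBLR1 shRNA, against 10.66, 10.62 and 10.65 with control shRNA. Every array with TBLR1 shRNA lay below every array with control shRNA. The level was 1.94-fold lower in untreated cells (log2 difference −0.95 ± 0.05 SE, adjusted p = 8.84e-10) and 1.97-fold lower with isoproterenol (−0.98 ± 0.05 SE, adjusted p = 4.55e-10).

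Slc25a1, the carrier that exports citrate for fatty acid and sterol synthesis, had levels of 9.89, 9.88 and 9.89 with TBLR1 shRNA, against 10.46, 10.61 and 10.67 with control shRNA, in untreated cells. In the presence of isoproterenol they were 9.77, 9.83 and 9.92 with TBLR1 shRNA, against 10.55, 10.70 and 10.68 with control shRNA. These groups did not overlap either, and the level was 1.61-fold lower in untreated cells (adjusted p = 7.65e-08) and 1.75-fold lower with isoproterenol (adjusted p = 9.57e-09). Slc25a11, the 2-oxoglutarate carrier of the malate-aspartate shuttle, averaged 9.86 ± 0.0859 with TBLR1 shRNA and 10.21 ± 0.0916 with control shRNA in untreated cells (SD, n = 3 each), which was 1.28-fold lower (adjusted p = 3.55e-05). With isoproterenol it was 1.29-fold lower (adjusted p = 2.22e-05). None of the 3 was called for isoproterenol with either shRNA, where the differences lay between −0.05 and 0.10. Of 7 measured enzymes of citrate, pyruvate, malate and fatty acid metabolism, 6 fell with TBLR1 shRNA in untreated cells, against 20.0% of all genes. Cs, citrate synthase, rose by a log2 difference of 0.29, and 17.7% of all genes rose. The largest falls were in the malic enzyme Me1 (−0.77), the fatty acid synthase Fasn (−0.72), the pyruvate carboxylase Pcx (−0.64) and the ATP citrate lyase Acly (−0.37). The same counts of 6 lower and 1 higher were found with isoproterenol, against 22.3% and 19.5% of all genes.

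The aspartate/glutamate carriers, which are also part of the malate-aspartate shuttle, moved the other way. Slc25a12, aralar, had levels of 9.61, 9.57 and 9.64 with TBLR1 shRNA, against 8.92, 9.08 and 9.05 with control shRNA, in untreated cells. The values with isoproterenol were 9.49, 9.60 and 9.57 with TBLR1 shRNA, against 8.74, 8.86 and 8.82 with control shRNA. The groups were apart in both comparisons, and the level was 1.51-fold higher in untreated cells (adjusted p = 8.62e-08) and 1.68-fold higher with isoproterenol (adjusted p = 4.46e-09). Slc25a13, citrin, averaged 7.23 ± 0.0679 with TBLR1 shRNA and 6.74 ± 0.0155 with control shRNA in untreated cells (SD, n = 3 each), a 1.41-fold rise (adjusted p = 1.75e-07), and was 1.42-fold higher with isoproterenol (adjusted p = 9.77e-08). Of 5 enzymes of the malate-aspartate and glycerol phosphate shuttles, 1 rose and 3 fell in untreated cells, against 17.7% and 20.0% of all genes. Got1, the cytosolic aspartate aminotransferase, rose by a log2 difference of 0.62, while Gpd2 (−0.42), Mdh1 (−0.27) and Gpd1 (−0.21) fell.

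The other amino acid carriers changed less. Slc25a44, a carrier of branched-chain amino acids, rose 1.32-fold in untreated cells (0.40 ± 0.04 SE, adjusted p = 6.43e-07) and 1.28-fold with isoproterenol (adjusted p = 1.63e-06). Of 11 genes for the first steps of branched-chain amino acid breakdown, 1 rose and 7 fell in untreated cells. The shares of all genes were 17.7% and 20.0%. Bcat1, the cytosolic aminotransferase, rose by 0.38 on the log2 scale, and the largest falls were in Bckdhb (−0.60), Mccc1 (−0.59), Mccc2 (−0.57) and Ppm1k (−0.49). Slc25a15, the ornithine carrier of the urea cycle, fell by 0.13 in untreated and 0.17 in treated cells, and Slc25a29, a carrier of basic amino acids, fell by 0.12 in untreated cells. In untreated cells these calls ended under 6 and 8 of 21 alternatives. The glutamate carriers Slc25a18 and Slc25a22, the ornithine carrier Slc25a2 and the glycine carrier Slc25a38, which serves haem synthesis, were not called in any comparison. Of these, Slc25a2 and Slc25a18 were dim.

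In the shRNA comparisons the largest rise of the family was among the iron, glutathione and pyrimidine carriers. Slc25a37, mitoferrin-1, brings iron into mitochondria for haem and iron-sulphur clusters. It had levels of 9.02, 8.65 and 8.64 with TBLR1 shRNA, against 7.52, 7.40 and 7.27 with control shRNA, in untreated cells. After isoproterenol they were 9.18, 9.14 and 9.18 with TBLR1 shRNA, against 7.68, 7.65 and 7.62 with control shRNA. The groups were more than 1 log2 unit apart at their nearest arrays in both comparisons. The level was 2.58-fold higher in untreated cells (1.37 ± 0.08 SE, adjusted p = 2.41e-09) and 2.86-fold higher with isoproterenol (1.52 ± 0.08 SE, adjusted p = 5.83e-10).

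Slc25a28, mitoferrin-2, rose by 0.22 ± 0.05 SE in untreated cells (adjusted p = 0.00224) and by 0.20 ± 0.05 SE with isoproterenol (adjusted p = 0.0041). Slc25a39, a glutathione carrier, had levels of 11.55, 11.62 and 11.56 with TBLR1 shRNA, against 11.29, 11.40 and 11.45 with control shRNA, in untreated cells. With isoproterenol it had 11.49, 11.61 and 11.53, against 11.42, 11.37 and 11.40. The groups did not overlap, with log2 differences of 0.19 (adjusted p = 0.00296) and 0.15 (adjusted p = 0.0149). The second of these calls ended without TBLR1 shRNA and isoproterenol replicate 2 (adjusted p = 0.0744) or control shRNA and isoproterenol replicate 2 (adjusted p = 0.0543). The pyrimidine nucleotide carriers parted. Slc25a36 rose by 0.34 in untreated cells (adjusted p = 5.97e-05) and by 0.30 with isoproterenol (adjusted p = 0.000176), whereas Slc25a33 fell by 0.12 (adjusted p = 0.0469) and by 0.21 (adjusted p = 0.0011). The call for Slc25a33 in untreated cells ended under 12 of 21 alternatives. Of 11 genes of mitochondrial iron, haem and iron-sulphur cluster metabolism, 1 rose and 6 fell in untreated cells. The shares of all genes were 17.7% and 20.0%. The glutaredoxin gene Glrx5 rose by 0.69, and Fech (−0.35), Nfs1 (−0.35) and Cpox (−0.31) had the largest falls.

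**Figure D3:**
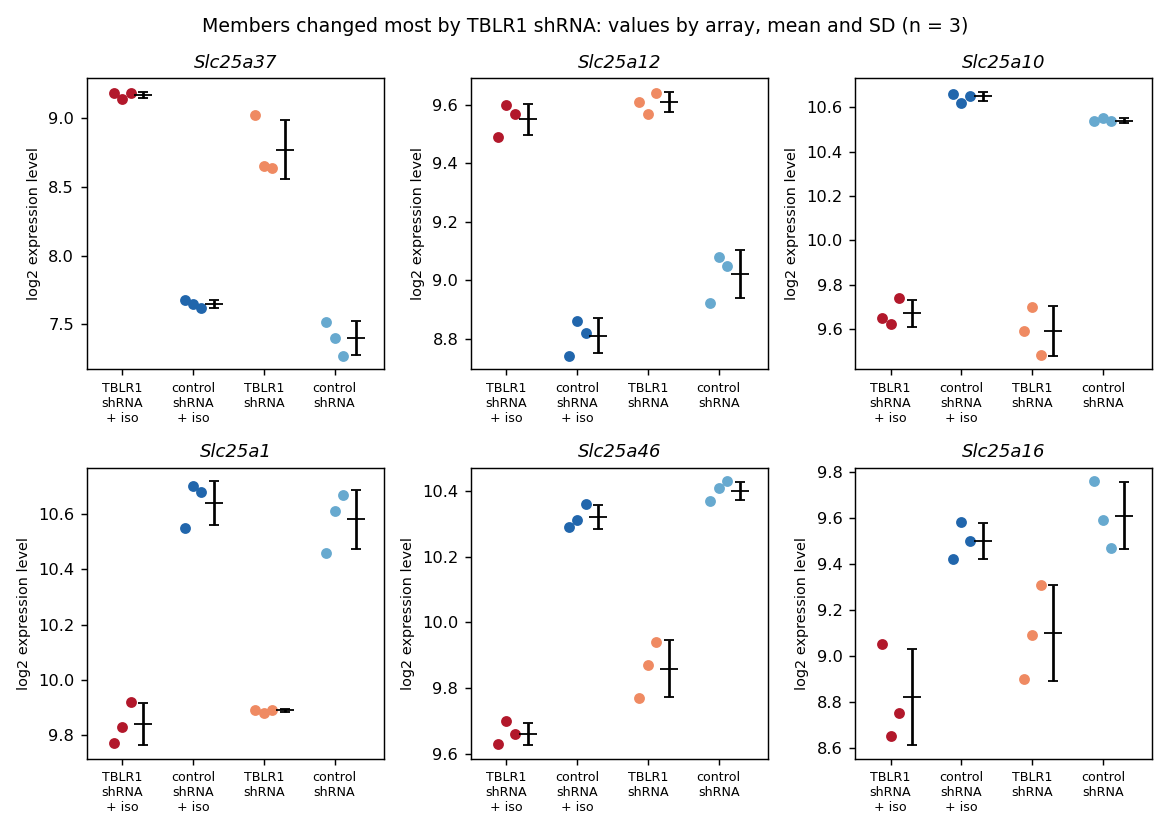
Log2 expression level (y axis) of 6 members on each array (coloured points) in the 4 groups (x axis), with the mean and SD of 3 arrays in black beside them; each panel has its own y range. Slc25a37 and Slc25a12 are higher and Slc25a10, Slc25a1, Slc25a46 and Slc25a16 lower on every array with TBLR1 shRNA than on every array with control shRNA of the same treatment.

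The carriers of energy metabolism gave the brightest signals. Signals of different probe sets do not rank transcript amounts, so only differences between groups are read. Slc25a5, the ADP/ATP carrier ANT2, had levels of 14.00, 14.00 and 13.92 with TBLR1 shRNA, against 14.03, 14.04 and 14.06 with control shRNA, in untreated cells. With isoproterenol it had 13.95, 14.06 and 13.95, against 14.03, 14.04 and 14.03. Its log2 differences of −0.07 (95% interval −0.16 to 0.02) and −0.05 (−0.13 to 0.04) were not called. Slc25a4, ANT1, had levels of 12.99, 12.99 and 13.01 with TBLR1 shRNA, against 13.04, 13.07 and 13.02 with control shRNA, in untreated cells, and 12.92, 13.00 and 12.93, against 13.02, 13.06 and 13.04, with isoproterenol. Its arrays did not overlap, yet the differences of −0.05 (−0.12 to 0.03) and −0.09 (−0.17 to −0.01) were not called after adjustment. Whether these paralogues share probe signal was not tested.

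Slc25a3, the carrier that supplies phosphate to ATP synthase, did rise. It had levels of 12.82, 12.80 and 12.80 with TBLR1 shRNA, against 12.41, 12.43 and 12.51 with control shRNA, in untreated cells. Under isoproterenol they were 12.89, 12.90 and 12.89, against 12.56, 12.61 and 12.57. The groups were apart in both comparisons, with a 1.28-fold rise in untreated cells (adjusted p = 1.45e-06) and a 1.24-fold rise with isoproterenol (adjusted p = 4.05e-06). Of 12 genes of ATP synthase and its inhibitor, 0 rose and 6 fell in each comparison. Of all genes 17.7% rose and 20.0% fell in untreated cells, and 19.5% and 22.3% with isoproterenol. Among the falls in untreated cells were Atp5e (−0.31), Atp5pb (−0.28), Atp5k (−0.24) and Atp5j2 (−0.23). Of the ATP-Mg/phosphate carriers, which set the adenine nucleotide content of the matrix, Slc25a23 fell by 0.17 in untreated cells (adjusted p = 0.00539, and 0.29 after centring on the hybridisation controls). Slc25a24 was not called in any comparison, nor were Slc25a41 and the testis form Slc25a31, which were dim.

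Among the carriers of fatty acids and cofactors, Slc25a16 and Slc25a32 fell in both comparisons. Slc25a16, a carrier linked to coenzyme A, had levels of 8.90, 9.09 and 9.31 with TBLR1 shRNA, against 9.76, 9.59 and 9.47 with control shRNA, in untreated cells. In treated cells the levels were 9.05, 8.65 and 8.75 with TBLR1 shRNA, against 9.42, 9.58 and 9.50 with control shRNA. The groups did not overlap, with SDs of 0.0782 to 0.209 within them. The level was 1.42-fold lower in untreated cells (adjusted p = 0.00102) and 1.61-fold lower with isoproterenol (adjusted p = 5e-05). Slc25a32, a carrier linked to folate and FAD, was 1.30-fold lower in untreated cells (adjusted p = 4.38e-05) and 1.32-fold lower with isoproterenol (adjusted p = 1.99e-05). Of 10 genes of thiamine, folate and coenzyme A metabolism, 2 rose and 6 fell in untreated cells, against 17.7% and 20.0% of all genes. The pantothenate kinase Pank3, which starts coenzyme A synthesis, fell by 1.05 on the log2 scale, and Mthfd2 fell by 0.69.

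Slc25a26 rose by 0.14 in untreated cells (adjusted p = 0.0121), a call that ended without TBLR1 shRNA untreated replicate 3 (adjusted p = 0.0704) or control shRNA untreated replicate 1 (adjusted p = 0.0519). Slc25a20, which brings acylcarnitines in for oxidation, had a difference of −0.06 in untreated cells (adjusted p = 0.319). In treated cells it was lower by 0.16 with TBLR1 than with control shRNA (adjusted p = 0.00957). The second call ended without TBLR1 shRNA and isoproterenol replicate 2 (adjusted p = 0.0559). Of 5 genes of the carnitine shuttle, Cpt1a, the enzyme that makes acylcarnitines, rose by 1.18 in untreated cells and by 1.06 with isoproterenol. In treated cells Crat (−0.30) and the carnitine transporter Slc22a5 (−0.26) were lower with TBLR1 than with control shRNA. The peroxisomal cofactor carrier Slc25a17 was not called in any comparison.

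Of the 10 uncoupling protein homologues and members of uncertain function, 1 rose and 5 fell in untreated cells, against 17.7% and 20.0% of all genes. With isoproterenol 1 rose and 4 fell, against 19.5% and 22.3%. Slc25a46, an outer membrane protein that acts in mitochondrial dynamics, had levels of 9.77, 9.87 and 9.94 with TBLR1 shRNA, against 10.37, 10.41 and 10.43 with control shRNA, in untreated cells. With isoproterenol it had 9.63, 9.70 and 9.66 with TBLR1 shRNA, against 10.29, 10.31 and 10.36 with control shRNA. All arrays with TBLR1 shRNA lay below those with control shRNA, and the level was 1.46-fold lower in untreated cells (adjusted p = 8.85e-08) and 1.57-fold lower with isoproterenol (adjusted p = 7.95e-09).

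Slc25a30, an uncoupling protein homologue, rose by 0.15 in untreated cells (adjusted p = 0.00366) and by 0.20 with isoproterenol (adjusted p = 0.000235). Its homologue Slc25a14 fell by 0.25 (adjusted p = 0.000184) and by 0.16 (adjusted p = 0.00578). Slc25a53 (−0.25), Slc25a45 (−0.16) and Slc25a47 (−0.13) fell with TBLR1 shRNA in untreated cells. In treated cells Slc25a34 (−0.43) and Slc25a35 (−0.27) were lower with TBLR1 than with control shRNA. The call for Slc25a47 ended under 15 of 21 alternatives. Slc25a45 was not called without TBLR1 shRNA untreated replicate 1 (adjusted p = 0.0871) or control shRNA untreated replicate 3 (adjusted p = 0.116). Slc25a27, Slc25a48 and Slc25a54 were dim and were not called in any comparison. Of the 8 members that were dim, Slc25a23 was the one called.

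Isoproterenol changed fewer members. With TBLR1 shRNA 5 members were called (11.6%), against 8.86% of all genes, with 4 higher, against 4.09%, and 1 lower, against 4.78%. With control shRNA 11 members were called (25.6%), against 18.6% of all genes. Of these 8 rose, against 7.7% of all genes, and 3 fell, against 10.9%. At least 1.5-fold changes were called for 1 member with TBLR1 shRNA, against 0.616% of all genes, and for 3 members with control shRNA, against 1.24%. The arrays did not overlap for 13 members with TBLR1 shRNA, against 25.2% of all genes, and for 18 with control shRNA, against 33.2%. Of members that were not dim 14.3% and of such genes 12.9% were called with TBLR1 shRNA, and 31.4% and 26.6% with control shRNA. The count of 11 with control shRNA became 6 without control shRNA and isoproterenol replicate 2, and 7 (3 higher, 4 lower) after centring on the hybridisation controls. Under that centring 24.4% of 2480 called genes were higher, and as deposited 41.5% of the called genes were. The macrophage marker sum moved with isoproterenol too. Its log2 was 10.61 to 10.71 with isoproterenol, against 10.02 to 10.14 without it, under TBLR1 shRNA, and 10.07 to 10.30, against 9.75 to 9.89, under control shRNA. Of the 7 markers Cd14 alone was called in each, higher by 0.87 and by 0.63, and 5 of the 7 were dim. The part of this in the isoproterenol results was not tested. With control shRNA the 4 calls kept in all 21 alternatives were rises of Slc25a25, Slc25a42 and Slc25a51 and the fall of Slc25a12.

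Slc25a25, Slc25a42 and Slc25a51 had the largest rises. Slc25a25 is a calcium-regulated ATP-Mg/phosphate carrier, Slc25a42 carries coenzyme A and Slc25a51 carries NAD+. All 4 members called higher with TBLR1 shRNA, these 3 and Slc25a37, were among the 8 called higher with control shRNA. These comparisons share no arrays but share the estimate of spread, and the same overlap over all genes is not given here.

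As cAMP acts on many promoters through the factor CREB, the promoters of the members that rose were read for its element, TGACGTCA. Promoters came from RefSeq, build GRCm38.p6, as 250 bases before to 50 after a gene's start, and 33 of the 43 members had an entry. The 250 bases before the start are shown for the members with the full element, Slc25a25 and Slc25a36, and for the strong riser Slc25a42, which holds neither the element nor its TGACG core. Capitals mark TGACGTCA.
Slc25a25, chr2:32424067-32424316, minus strand: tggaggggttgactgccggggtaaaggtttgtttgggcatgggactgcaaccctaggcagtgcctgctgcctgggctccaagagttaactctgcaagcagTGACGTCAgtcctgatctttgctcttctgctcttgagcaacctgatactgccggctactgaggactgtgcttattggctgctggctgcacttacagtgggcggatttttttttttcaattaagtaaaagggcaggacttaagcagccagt
Slc25a36, chr9:97111042-97111291, minus strand: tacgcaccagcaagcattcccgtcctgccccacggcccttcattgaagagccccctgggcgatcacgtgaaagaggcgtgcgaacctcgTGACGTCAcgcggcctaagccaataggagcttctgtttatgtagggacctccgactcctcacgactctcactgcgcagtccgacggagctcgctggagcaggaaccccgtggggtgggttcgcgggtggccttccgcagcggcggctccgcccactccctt
Slc25a42, chr8:70212282-70212531, minus strand: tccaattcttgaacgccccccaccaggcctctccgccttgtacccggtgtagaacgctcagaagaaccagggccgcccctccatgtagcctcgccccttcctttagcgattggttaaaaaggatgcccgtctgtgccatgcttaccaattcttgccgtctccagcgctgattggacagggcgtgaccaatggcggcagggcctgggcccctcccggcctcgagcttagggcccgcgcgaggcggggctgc
Both strands were searched. TGACGTCA was found in 2 of the 33 members with an entry and in 2.03% of 27025 genes. Both of these members were among the 8 that rose with control shRNA, of which 5 had an entry. The rise of Slc25a36 was small (0.20, adjusted p = 0.0134) and its call ended under 3 of 21 alternatives. The first base of the element lay 150 bases before the start of Slc25a25 and 161 before that of Slc25a36. The TGACG core, which overlaps the full element, was found in 11 of the 33 members and in 23.0% of genes. Slc25a3, Slc25a25, Slc25a33 and Slc25a36 hold it, 4 of the 5 risers with an entry. It was also in 4 of the 7 members with an entry that fell in both shRNA comparisons. Of those that rose in both, 4 of 7 with an entry held it, and these sets overlap the risers. Slc25a25 has 3 starts, and the 250 bases before the other two hold no TGACG. Slc25a35, Slc25a37 and Slc25a51 had no entry. The interferon motif core GAAANNGAA was found in 2 of 33 members (9.76% of genes), the sterol element TCACNCCAC in 1 (1.44%), the ERR element TNAAGGTCA in 0 (1.43%) and the NRF1 core GCATGCGC in 2 (3.05%). A match of letters is not a binding site.

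Slc25a25 had levels of 8.73, 8.70 and 8.73 with isoproterenol, against 7.83, 7.56 and 7.61 without it, under TBLR1 shRNA. Under control shRNA it had 9.11, 9.52 and 9.30 with isoproterenol, against 7.60, 7.46 and 7.55 without it. The treated arrays lay above the untreated arrays with either shRNA, and those with TBLR1 shRNA lay below those with control shRNA after treatment. The rise was 2.08-fold with TBLR1 shRNA (1.05 ± 0.08 SE, adjusted p = 5.58e-07) and 3.42-fold with control shRNA (1.77 ± 0.08 SE, adjusted p = 3.72e-10). The response with TBLR1 shRNA was smaller by a log2 difference of −0.72 ± 0.12 SE (95% interval −0.97 to −0.47, adjusted p = 0.00362). Between TBLR1 and control shRNA, Slc25a25 differed by 0.13 in untreated cells (adjusted p = 0.28) and was 1.51-fold lower with isoproterenol (adjusted p = 2.14e-05).

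Slc25a42 had levels of 8.25, 8.01 and 8.10 with isoproterenol, against 7.57, 7.61 and 7.48 without it, under TBLR1 shRNA. Under control shRNA it had 8.46, 8.43 and 8.42 with isoproterenol, against 7.47, 7.34 and 7.45 without it. The treated arrays lay above the untreated arrays with either shRNA, and after treatment those with TBLR1 shRNA lay below those with control shRNA. The rise was 1.48-fold with TBLR1 shRNA (adjusted p = 6.95e-06) and 2.02-fold with control shRNA (adjusted p = 2.94e-09), and the responses differed by −0.45 ± 0.08 SE (95% interval −0.62 to −0.28, adjusted p = 0.00654). With isoproterenol the level was 1.24-fold lower with TBLR1 than with control shRNA (adjusted p = 0.00023).

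Slc25a51 had levels of 9.77, 9.63 and 9.73 with isoproterenol, against 9.23, 9.20 and 9.21 without it, under TBLR1 shRNA. Under control shRNA it had 10.08, 10.01 and 10.09 with isoproterenol, against 9.24, 9.23 and 9.36 without it. Treated and untreated arrays were again apart. The rise was 1.41-fold with TBLR1 shRNA (adjusted p = 3.54e-06) and 1.72-fold with control shRNA (adjusted p = 6.77e-09). The responses differed by −0.28 ± 0.07 SE (adjusted p = 0.0349), a call that held under 10 of 20 alternatives, with adjusted p from 0.0157 to 0.278.

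**Figure D4:**
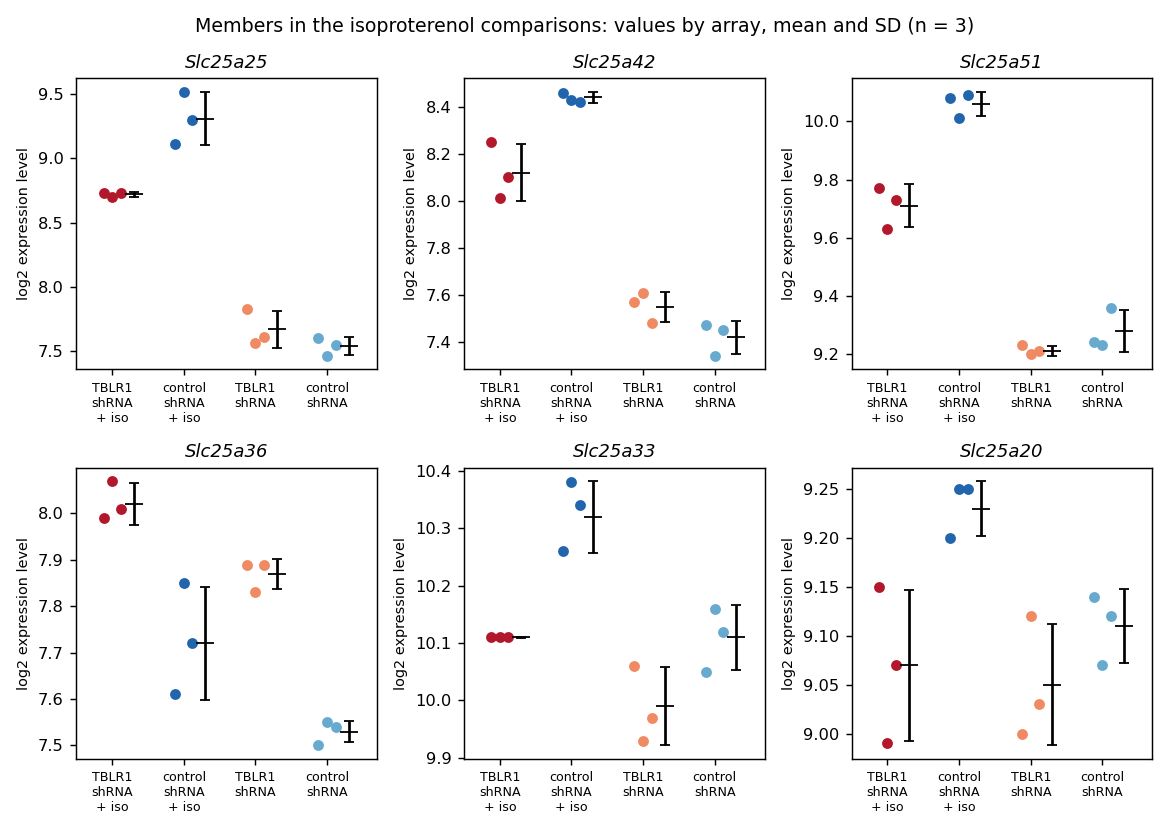
Log2 expression level (y axis) of 6 members on each array (coloured points) in the 4 groups (x axis), with the mean and SD of 3 arrays in black; each panel has its own y range. Slc25a25, Slc25a42 and Slc25a51 are lower with TBLR1 shRNA and isoproterenol than with control shRNA and isoproterenol, where Slc25a25 has levels of 8.70 to 8.73 and 9.11 to 9.52.

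These 3 were the members whose responses differed between the shRNAs (6.98%), against 2.4% of all genes. The difference was negative for all 3, which here was a smaller rise with TBLR1 shRNA. A negative difference, which can also be a larger fall, was called for 1.33% of all genes. A positive difference, a larger rise or a smaller fall, was called for 0 members, against 1.07% of all genes. Among those not dim the shares were 8.57% of members and 3.52% of genes. Of 10 genes of mitochondrial biogenesis, 2 rose and 2 fell with isoproterenol under TBLR1 shRNA, and 3 rose and 0 fell under control shRNA. The shares of all genes were 4.09% and 4.78% under TBLR1 shRNA, and 7.7% and 10.9% under control shRNA. Ppargc1a, the coactivator PGC-1α, rose by 1.75 with TBLR1 shRNA and by 2.84 with control shRNA, with a difference of −1.09. Ppargc1b rose by 0.27 with TBLR1 shRNA and by 0.81 with control shRNA, with a difference of −0.54. These were the 2 of 10 genes of that list whose responses were called different. Of the carnitine shuttle genes 0 of 5 were called for isoproterenol with TBLR1 shRNA, against 8.86% of all genes. With control shRNA 4 of 5 rose, against 7.7%, but Crat was the one for which the difference (−0.28) was called.

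The other isoproterenol calls were small. Slc25a37 rose by 0.40 with TBLR1 shRNA (adjusted p = 0.00524) and by 0.25 with control shRNA (adjusted p = 0.0417), and the second call ended under 7 of 21 alternatives. With control shRNA Slc25a33 (0.21), Slc25a36 (0.20), Slc25a35 (0.19) and Slc25a3 (0.13) rose. Slc25a12 (−0.21), Slc25a53 (−0.18) and Slc25a14 (−0.17) fell. Of these 7, the call of Slc25a12 held under all 21 alternatives, and each of the others ended under 1 to 6. With TBLR1 shRNA the 7 had differences of −0.08 to 0.15 that were not called, and none of the 7 differences between the responses was called. Slc25a46 fell by 0.19 with TBLR1 shRNA (adjusted p = 0.0118), a call that ended without TBLR1 shRNA untreated replicate 2 (adjusted p = 0.052) or 3 (adjusted p = 0.0762), or after centring on the hybridisation controls (adjusted p = 0.0733), and had a difference of −0.08 with control shRNA. Slc25a20 was not called for isoproterenol with either shRNA. Ucp1, which is of the same protein family under another symbol, rose by 0.27 with TBLR1 shRNA and by 0.31 with control shRNA. Ucp3 rose by 0.25 with control shRNA.

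**Figure D5:**
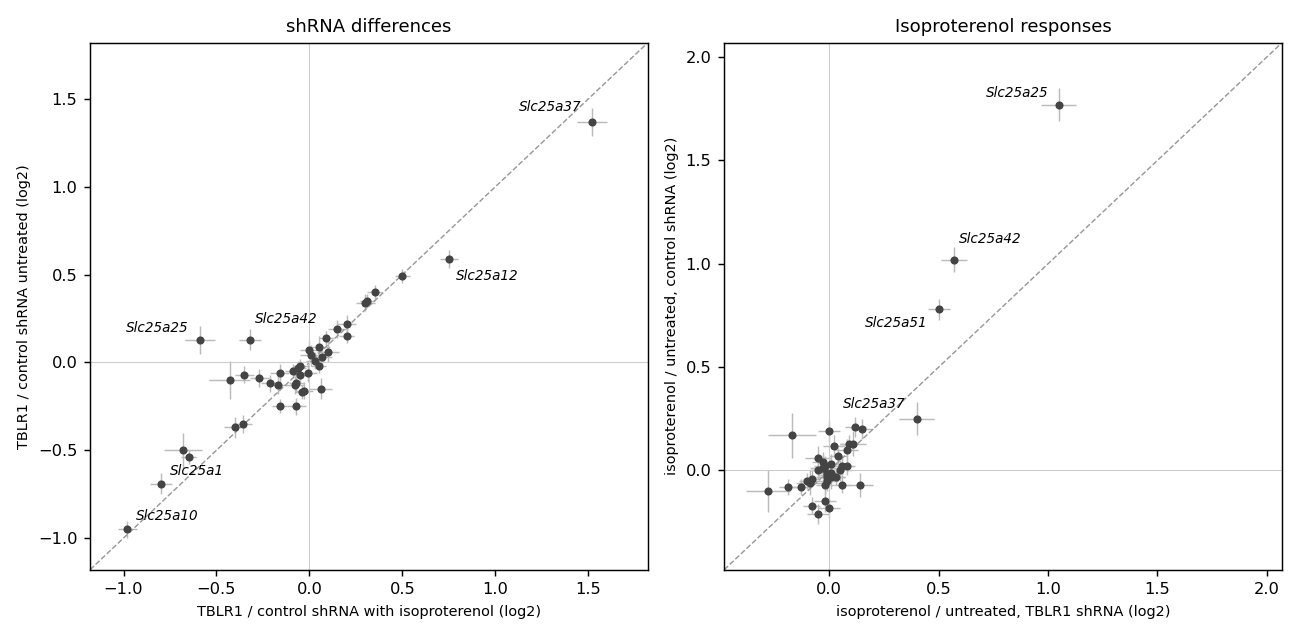
Log2 differences of the 43 members with their standard errors: on the left TBLR1 over control shRNA with isoproterenol (x axis) and untreated (y axis), on the right isoproterenol over untreated with TBLR1 shRNA (x axis) and control shRNA (y axis); the dashed line marks equal values. On the right Slc25a25 lies above the line, at 1.05 and 1.77, as do Slc25a42 and Slc25a51.

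In at least 1 of the 4 comparisons of groups 30 members were called (69.8%), against 52.6% of all genes, and 13 were called in none. Of all genes that were not dim 71.9% were called in at least 1, and 35 of the 43 members were not dim. That share is not a like one for the 69.8%, which includes the 8 dim members, of which 1 was called. Of 10 measured genes that import carriers into the inner membrane, 5 rose and 2 fell with TBLR1 shRNA in untreated cells. In treated cells 3 were higher and 3 lower with TBLR1 than with control shRNA. The shares of all genes were 17.7% and 20.0% in untreated cells, and 19.5% and 22.3% in treated cells. Timm10, a chaperone of the space between the membranes, rose by 0.29 and by 0.36, and Timm8b fell by 0.25 and by 0.30. Of 3 measured genes for the outer membrane, 0 were called in untreated cells. In treated cells Vdac1 (0.14) and Tspo (0.13) were higher with TBLR1 than with control shRNA. Of 4 family members under other symbols, Mtch1 was higher with TBLR1 shRNA by 0.19 in untreated and 0.20 in treated cells. Ucp3 was lower by 0.18 with TBLR1 than with control shRNA in treated cells.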

How the data were processed

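Biotinylated cRNA of 12 samples was hybridised to Affymetrix arrays, per the labels' protocols. The table deposited by the authors holds log2 levels, 1 for each probe set, a scale read from the range of 5.391 to 14.58. When sorted, any 2 arrays differed by 0.00781 at most, so quantile normalisation had been done before deposit. Background correction and summarisation: not given in the sources used here. Such scaling leaves all arrays with a median of 7.14, and a change shared by most genes would not be seen. Arrays hold no counts, and the number of arrays limits the precision.

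Of 16553 probe sets, 15270 had 1 gene symbol in the platform annotation, which can be old; the brighter probe set was kept for 3 genes. With limma 3.58.1 in R 4.3.3, 4 group means were fitted to the 12 arrays for 15267 genes, followed by eBayes (8 residual and 7.38 prior degrees of freedom). The 5 contrasts were TBLR1 against control shRNA in untreated cells and with isoproterenol, isoproterenol against untreated with each shRNA, and the difference of the responses. Two-sided p-values were adjusted by Benjamini-Hochberg over the genes of each contrast, with calls at an adjusted p under 0.05. The fit was tested on simulated data. Plots: matplotlib 3.10.9, Python 3.11.15. Groups came from the labels, which give no batch.

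The members, their roles and 17 gene lists (125 genes measured) were chosen with earlier results of these data known. All members are named; values on every array are given for those called at 1.5-fold or more between groups, those called in the difference of responses and the 5 with the highest signal. Of each list up to 4 called genes with the largest changes are named; Cs and Bcat1 were added after their values were seen. Alternatives were other scalings, model settings, filters and leaving out each array.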

Additional observations from a re-analysis of the deposited data

Results flagged for a closer look

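The responses of Slc25a25, Slc25a42 and Slc25a51 to isoproterenol differed between TBLR1 and control shRNA by the interaction term of the fit. The log2 difference between the responses was −0.72 for Slc25a25, −0.45 for Slc25a42 and −0.28 for Slc25a51. Over 20 alternatives the adjusted p was at most 0.0126 for Slc25a25 and at most 0.0248 for Slc25a42, while that of Slc25a51 reached 0.278.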

How the results depend on the processing

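No member changed direction under any alternative run where it was called. The calls kept in every alternative were 17 of 24 for TBLR1 shRNA in untreated cells, 19 of 24 for it with isoproterenol, 4 of 5 for isoproterenol with TBLR1 shRNA, 4 of 11 for it with control shRNA and 2 of 3 for the difference of the responses. For isoproterenol with control shRNA the 11 calls became 5 at an adjusted p under 0.01 and 7 with centring on hybridisation controls; the first threshold is stricter by construction, and the cause of the second was not tested. Leaving out 1 array in turn gave 19 to 24 calls for TBLR1 shRNA in untreated cells, 23 to 24 with isoproterenol, 4 to 7 for isoproterenol with TBLR1 shRNA, 6 to 12 for it with control shRNA (6 without control shRNA and isoproterenol replicate 2) and 2 to 3 for the difference of the responses.

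Of the calls lost for TBLR1 shRNA in untreated cells, the highest adjusted p was 0.557 for Slc25a15, 0.672 for Slc25a29, 0.582 for Slc25a47, 0.628 for Slc25a33, 0.387 for Slc25a45 and 0.29 for Slc25a23, each with centring on the hybridisation controls. For isoproterenol with control shRNA, Slc25a14 was lost without control untreated replicate 3 (adjusted p = 0.0637) or control isoproterenol replicate 2 (0.059), and without that array Slc25a3 (0.092), Slc25a35 (0.0606), Slc25a36 (0.0735) and Slc25a37 (0.092) were lost too.

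The labels give each group replicates 1 to 3. Arrays of the same number did not deviate together (18 pairs, median r 0.0015, 2 over 0.1), so the numbers were not taken as pairs. For arrays of other numbers there were 36 pairs, with a median r of −0.017, a highest r of 0.259 and 7 over 0.1. Whether arrays share a batch in another order was not tested. With the replicate number as a block, 21 members were called for TBLR1 shRNA in untreated cells, 24 with isoproterenol, 5 for isoproterenol with TBLR1 shRNA, 11 with control shRNA and 3 for the difference of the responses. Of the 43 members, 8 were dim (mean log2 level under 6.48), and signal over background was not analysed here.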
